A study of Gallus gallus with 6 samples.

Results

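The collagen genes and SERPINH1, the gene of the collagen chaperone also called HSP47, were followed in RNA sequencing of chicken jejunal mucosa. Members were the rows whose symbol is COL, a number, A and a number, plus SERPINH1, and they were kept when at least 10 counts were present in 3 or more of the 6 libraries. Of 16317 genes in the table, 42 matched by name, 41 collagens and SERPINH1, and 35 were kept, 34 collagens and SERPINH1. All 35 were among the 13060 genes tested, no member was kept through the control or the heat libraries alone, and 29 of the 34 collagens had at least 10 counts in all 6 libraries. The 7 left out were COL2A1, COL4A3, COL9A2, COL10A1, COL11A1, COL22A1 and COL28A1, whose largest count in any library was 11.

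The study asked how acute heat alters gene expression in the gut of breeder hens of the SUT breed. Of 50 hens aged 28 weeks, 25 stayed at 23 °C without heat stress (control) and 25 were held at 36 °C for 6 h (heat). Jejunal mucosa of 12 hens per group was taken, and the RNA of 4 hens was mixed for each library, which gave 3 control pools and 3 heat pools. The spread between libraries is therefore a spread between pools of hens, and the variation between single hens was not analysed here.

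Collagens are proteins of 3 chains wound into a triple helix. Their chains are made in the endoplasmic reticulum, where prolines and lysines are hydroxylated and SERPINH1 binds the folded helix until it leaves for the Golgi. SERPINH1 protein was described as a heat-inducible, collagen-binding protein of chick embryo fibroblasts. In the intestinal mucosa, fibroblasts of the lamina propria make most of the fibrillar collagen, and basement membrane collagens underlie the epithelium and surround vessels and smooth muscle.

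Library totals lay between 11513427 and 13805395 counts, with 14871 to 15136 genes detected. The enterocyte markers VIL1, FABP2, APOB, SI and ANPEP were all abundant, with the 12 markers of that list summing to 10880 to 15834 CPM (counts scaled to library size) per pool, and ALPI was the lowest of them at 2.22 to 2.67 CPM. Heat pool 2 stood apart from the other 5 on the first principal component, which carried 37.6% of the variance, and heat pool 3 on the second, which carried 20.4%. The value without a pool is given for part of the results it changes, and named genes whose sign it changed are listed at the end. Across all genes, 3 of 13060 (0.023%) had an adjusted p under 0.05 by the quasi-likelihood test of edgeR, all 3 higher in heat.

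None of the 35 members passed that threshold. SERPINH1 was higher in every heat pool than in every control pool, by 2.38 times in the fit, whereas the median log2 fold change of the 34 collagens was near 0. Among the collagens, 19 had a positive and 15 a negative log2 fold change of heat against control, with a median of 0.08 (all genes tested, median -0.00) and a range from -1.77 to 0.86. The smallest adjusted p of a collagen was 0.234 (edgeR). The collagens COL16A1 and COL7A1 lay lower in all 3 heat pools than in all 3 control pools, and no collagen lay higher in all 3. Here and below, groups are said not to overlap when they are apart in CPM, and genes that overlap in FPKM are named as such. That is 2 of 34 lower without overlap, where 12.9% of all genes did so, and 0 of 34 higher, where 11.6% did; for either direction the share of all genes was 24.5%. At an unadjusted p under 0.05, 2 collagens were higher (COL4A6 and COL12A1) and 2 lower (COL16A1 and COL7A1), beside 17.9% of all genes.

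SERPINH1, gene 396228, was the member with the sixth highest mean level in the control pools, below COL3A1, COL1A1, COL1A2, COL6A2 and COL6A1. Its level, in fragments scaled to transcript length and library size (FPKM), was 33.1, 43.6 and 42.5 in control pools 1 to 3, and 77.1, 150 and 46.3 in heat pools 1 to 3. The groups did not overlap, but heat pool 3 lay just above the highest control pool and heat pool 2 far above all others. The group means were 39.7 ± 5.77 and 91.3 ± 53.5 FPKM (SD, n = 3 pools each). Against the mean CPM of the control pools the heat pools stood at 1.93, 3.93 and 1.27 times. The fitted log2 fold change was 1.25 with an SE of 0.37, and the edgeR adjusted p was 0.154. DESeq2 gave a log2 fold change of 1.26 and an adjusted p of 0.00858, so the call depends on the tool. Without heat pool 2 the log2 fold change was 0.68, a fold of 1.61, with an edgeR adjusted p of 0.268.

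The size of the SERPINH1 difference in each heat pool can be set beside that of cytosolic and endoplasmic reticulum chaperones. HSPH1, a cochaperone of the HSP70 family, stood at 2.06, 11.1 and 2.87 times the control mean in heat pools 1, 2 and 3. HSP90AA1, the inducible cytosolic HSP90, stood at 2.39, 8.21 and 2.67 times, and HSPA2, a member of the HSP70 family, at 2.95, 53.9 and 2.81 times. HSPA5, the HSP70 of the endoplasmic reticulum, stood at 1.30, 2.40 and 1.78 times. Heat pool 2 was the highest for SERPINH1 and for all 4 of these genes. Heat pool 3 was the lowest heat pool for SERPINH1, as for HSPA2 by a narrow margin, while for HSPH1, HSP90AA1 and HSPA5 the lowest was heat pool 1. HSF1, a transcription factor of the heat shock response, overlapped between groups (log2 fold change 0.21, SE 0.28, edgeR adjusted p = 0.739). Of 14 heat shock genes tested beside SERPINH1, 13 had a positive log2 fold change and 10 were higher in all heat pools without overlap, beside 11.6% of all genes. One of the 10, HSF3, overlapped in FPKM. HSF2, another heat shock transcription factor, was the single one lower without overlap, with a log2 fold change of -0.26. None passed the edgeR threshold, and 6 passed it in DESeq2 (DNAJA1, HSP90AA1, HSP90B1, HSPA5, HSPA8 and HSPH1), where 4.94% of all genes did. For HSPA2 DESeq2 gave no adjusted p.

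**Figure D1:**
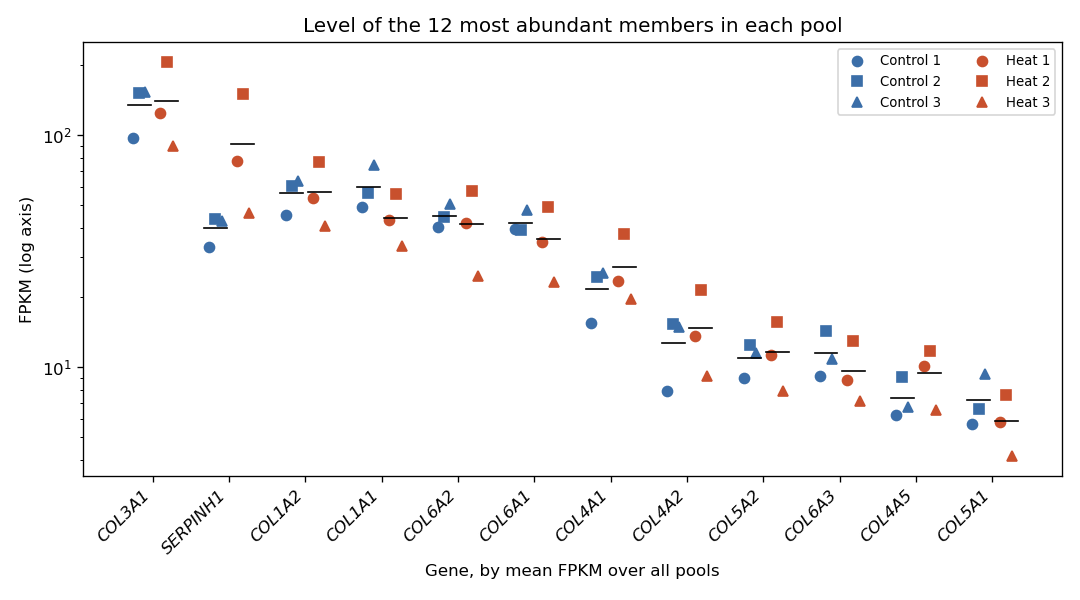
FPKM (log axis) of the 12 members with the highest mean level, in each of 3 control and 3 heat pools, with a line at each group mean. SERPINH1 is at 77.1, 150 and 46.3 FPKM in the heat pools and at 33.1 to 43.6 FPKM in the control pools, while each collagen shown has overlapping groups.

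Fibrillar collagens form the tensile fibres of connective tissue, and 7 were kept: COL1A1, COL1A2, COL3A1, COL5A1, COL5A2, COL24A1 and COL27A1. COL3A1, the single chain of type III collagen of reticular fibres, was the most abundant member at 97.8, 152 and 154 FPKM in the control pools and 125, 207 and 89.9 FPKM in the heat pools. Both its highest and its lowest value were in heat pools. COL1A2, the second chain of type I collagen, was at 45.2, 60.2 and 63.3 FPKM in control and 53.8, 76.9 and 40.7 FPKM in heat, with the same order of the heat pools. COL1A1, the chain that supplies most of the type I helix, was at 49.1, 56.3 and 74.4 FPKM in control and 43.3, 55.9 and 33.4 FPKM in heat. For COL1A1 the groups overlapped through heat pool 2, while heat pools 1 and 3 lay below every control pool.

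Log2 fold changes of these 3 chains were 0.11 (SE 0.30) for COL3A1, 0.07 (SE 0.23) for COL1A2 and -0.39 (SE 0.21) for COL1A1, with edgeR adjusted p of 0.882, 0.901 and 0.379. COL3A1 was at -0.27 and COL1A2 at -0.19 when heat pool 2 was left out, and COL1A1 was at -0.20 when control pool 3 was. COL5A2, a chain of the type V collagen that starts and limits fibril growth, was at 8.98, 12.4 and 11.52 FPKM in control and 11.3, 15.7 and 7.88 FPKM in heat. Its log2 fold change was 0.13 (-0.15 without heat pool 2). That of its partner chain COL5A1 was -0.26 (SE 0.24, and -0.02 without control pool 3). The 2 minor fibrillar chains differed in sign too, with COL27A1 at -0.41 (SE 0.29, and -0.17 without heat pool 3) and COL24A1 at 0.86 (SE 0.46). COL24A1 had 27, 28 and 44 counts in control and 30, 95 and 34 in heat, so its value rested on heat pool 2, and without that pool the log2 fold change was 0.18. Over the class the median was 0.07, with 4 positive and 3 negative.

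Basement membrane and network collagens form sheets in place of fibres, and 6 of the 7 kept had a positive log2 fold change, with a median of 0.32. None passed the threshold, and all overlapped between groups. The class median rested on heat pool 2 and control pool 1: it was 0.05 without the former, with 5 of 7 positive, and 0.13 without the latter. COL4A1, one of the chains of the common type IV collagen of basement membranes, was at 15.5, 24.5 and 25.4 FPKM in control and 23.6, 37.5 and 19.8 FPKM in heat. COL4A2, its partner chain, was at 7.89, 15.3 and 14.96 FPKM in control and 13.7, 21.5 and 9.21 FPKM in heat. In both chains control pool 1 was the lowest of all 6 pools and heat pool 2 the highest. Their log2 fold changes were 0.32 (SE 0.25) and 0.27 (SE 0.33), and without heat pool 2 they were 0.05 and -0.10.

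COL4A6, a type IV chain of the smooth muscle and some epithelial basement membranes in mammals, had the smallest p of any collagen. It was at 1.81, 3.02 and 2.19 FPKM in control and 3.61, 3.95 and 2.52 FPKM in heat. Heat pools 1 and 2 lay above every control pool, while heat pool 3 lay below control pool 2. The log2 fold change was 0.57 with an SE of 0.22 and an edgeR adjusted p of 0.234. COL4A5, which pairs with COL4A6 in that network, was at 6.23, 9.07 and 6.74 FPKM in control and 10.1, 11.8 and 6.52 FPKM in heat, in the same order of heat pools. Its log2 fold change was 0.42 with an SE of 0.21 and an edgeR adjusted p of 0.353, and it was 0.23 without heat pool 2. COL4A4, the remaining type IV chain kept, was at 0.14, and the short-chain network collagens COL8A2 and COL8A1 were at 0.41 and -0.02. By the gene table of the GRCg7b assembly COL4A1 lies next to COL4A2, COL4A5 next to COL4A6, and COL4A4 next to COL4A3, which was left out for low counts.

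Beaded filament and anchoring collagens were mostly of the other sign, with 4 of 5 negative, a median of -0.19 and no call. Type VI collagen forms beaded microfibrils around cells. COL6A2 was at 40.1, 44.3 and 50.3 FPKM in control and 41.9, 57.6 and 24.6 FPKM in heat, and COL6A1, its neighbour in GRCg7b, at 39.3, 39.1 and 47.5 FPKM in control and 34.5, 48.9 and 23.3 FPKM in heat. COL6A3, the longest chain of that type, was at 9.17, 14.4 and 10.9 FPKM in control and 8.78, 12.9 and 7.15 FPKM in heat. In all 3 chains heat pool 3 was the lowest pool of the 6. Log2 fold changes were -0.07 for COL6A2, -0.19 for COL6A1 and -0.21 for COL6A3 (-0.03 without control pool 2), while COL6A6, an alternative chain, was at 0.45 with an SE of 0.33. Without heat pool 3, COL6A2 was at 0.175 and COL6A1 at 0.019, so the mostly negative sign of the class rested on that pool. Without heat pool 2, COL6A6 was at -0.059.

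COL7A1, the anchoring fibril collagen beneath stratified epithelia, had the lowest log2 fold change of the collagens, -1.77 (SE 0.73, edgeR adjusted p = 0.257). It had 84, 14 and 16 counts in the control pools and 10, 10 and 9 in the heat pools. Control pool 1 alone set the size of the difference, and without it the log2 fold change was -0.43. At counts this low the other 2 control pools were barely above the heat pools.

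Fibril-associated collagens, which decorate fibrils and do not form them alone, were split 4 to 4 in sign, with a median of -0.05. COL12A1, found on type I fibrils of dense connective tissue, was at 2.10, 2.63 and 3.08 FPKM in control and 3.39, 4.54 and 2.73 FPKM in heat. Heat pools 1 and 2 lay above all control pools and heat pool 3 among them, and the log2 fold change was 0.51 (SE 0.21, edgeR adjusted p = 0.254), or 0.30 without heat pool 2. COL16A1, a minor fibril-associated chain, was at 2.56, 3.25 and 3.41 FPKM in control and 2.32, 2.42 and 1.37 FPKM in heat, lower in every heat pool without overlap. Its log2 fold change was -0.55 (SE 0.22, edgeR adjusted p = 0.251), or -0.36 without heat pool 3. COL9A1, a chain of cartilage type IX collagen, had 26.7, 26.4 and 13.2 counts in control and 13.3, 11.2 and 11.1 in heat, with heat pool 1 just above control pool 3. Its log2 fold change was -0.71 (SE 0.38, edgeR adjusted p = 0.362). The other 5 of the class, COL9A3, COL14A1, COL19A1, COL20A1 and COL21A1, ranged from -0.43 for COL20A1 to 0.35 for COL21A1. Without heat pool 3 COL20A1 was at -0.11, and without control pool 1 COL21A1 was at 0.009. COL14A1, with 3 to 19 counts per pool, had an SE of 0.70.

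Among the 4 transmembrane collagens, COL23A1 (0.78, SE 0.44) and COL25A1 (0.76, SE 0.43) had positive log2 fold changes at 5.38 to 13.9 and 8 to 24 counts per pool. COL17A1, a hemidesmosome collagen of epithelial cells, was at -0.28 (-0.03 without control pool 1), and COL13A1 at -0.30 (-0.07 without heat pool 3). COL17A1 had its lowest value, 1.5 FPKM, in control pool 2 and its highest, 4.04 FPKM, in control pool 1, so the control pools alone spanned the range of all 6. The multiplexins COL18A1, the source of endostatin, and COL15A1 were at 0.02 and 0.08, and COL26A1 at -0.46 (0.06 without control pool 2). None of these 7 genes separated the groups.

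**Figure D2:**
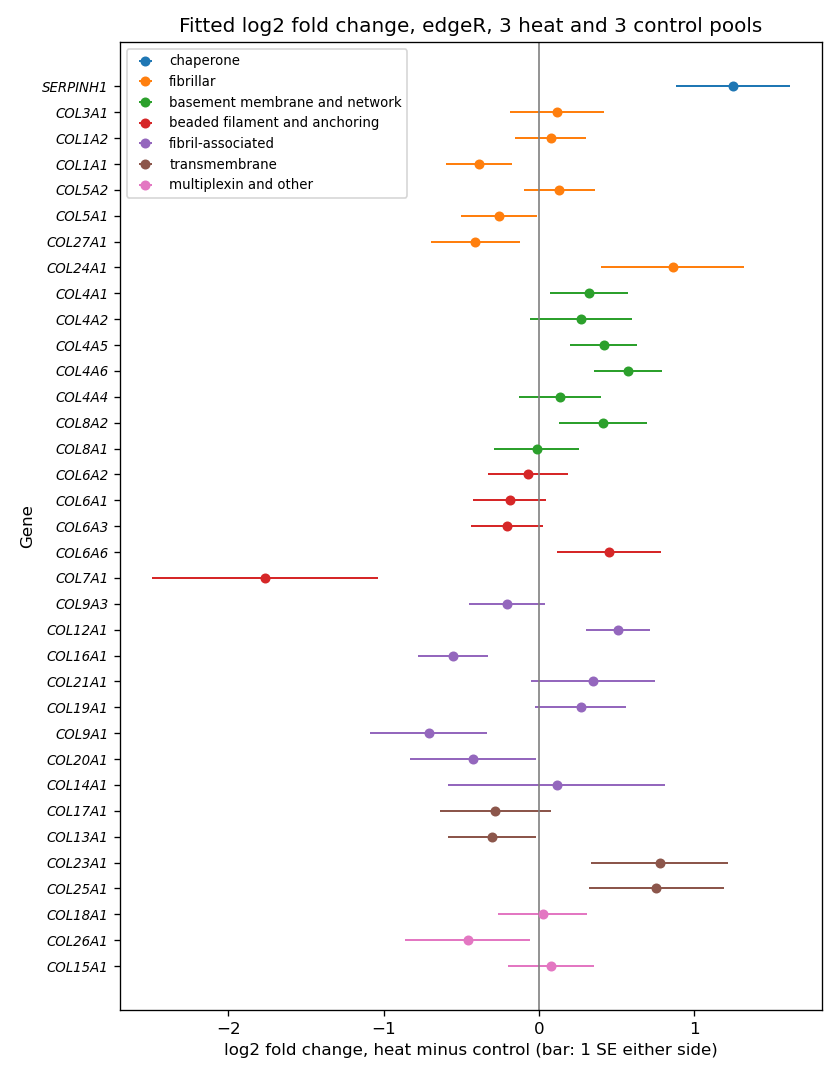
Fitted log2 fold change of heat against control (edgeR) for the 35 kept members, coloured by class, with bars of 1 SE on either side. SERPINH1 is at 1.25, collagens run from -1.77 (COL7A1) to 0.86 (COL24A1), and 6 of 7 basement membrane and network collagens lie right of 0.

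The collagens differed more from pool to pool than between the groups. The summed level of the 34 collagens was 352, 464 and 502 FPKM in the control pools and 402, 590 and 290 FPKM in the heat pools. As a share of all counts this was 0.182%, 0.245% and 0.260% in control and 0.212%, 0.313% and 0.154% in heat. Heat pool 2 held the highest and heat pool 3 the lowest sum of the series, so the 2 extremes were of the same group. COL3A1, COL1A2 and COL1A1 made up 54.6% to 58.1% of the sum in each pool. With COL6A2, COL6A1 and COL4A1 added they made up 79.9% to 82.6%. The remaining collagens were low, with 15 of 34 below a mean of 1 FPKM.

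The same order of pools ran through most collagens. Heat pool 2 was the highest of the 3 heat pools for 25 of 34 and heat pool 3 the lowest for 26, and control pool 1 was the lowest control pool for 24. The share of all genes with these orders within a group was not computed. The highest of all 6 values was in heat pool 2 for 17 collagens, where 24.6% of all genes had theirs, and the lowest was in heat pool 3 for 17, where 19.4% of all genes had theirs. On the log2 CPM scale the median of the 34 collagens, relative to the mean of the control pools, was -0.24, 0.08 and 0.19 in control and -0.02, 0.38 and -0.31 in heat. Without heat pool 2 the median log2 fold change of the collagens was -0.15, and without heat pool 3 it was 0.24, so its sign depends on which heat pool is left out. With the single pool left out that most reduced each value, 31 of the 34 collagens moved by over 1.5 times or changed sign, and COL4A6, COL9A1 and COL23A1 did not. SERPINH1 moved by over 1.5 times too. The share of all genes that did so was not computed, and a value near 0 passes this mark readily. Pools also differed by transcript length. Over all genes tested, log2 CPM relative to the mean of all pools had rank correlations with length of -0.27, -0.05 and -0.13 in control. In heat they were 0.27, 0.25 and -0.15. Collagen transcripts were long (median 5819 bases against 2562 for all genes tested), and the part of length in their pool order was not tested.

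**Figure D3:**
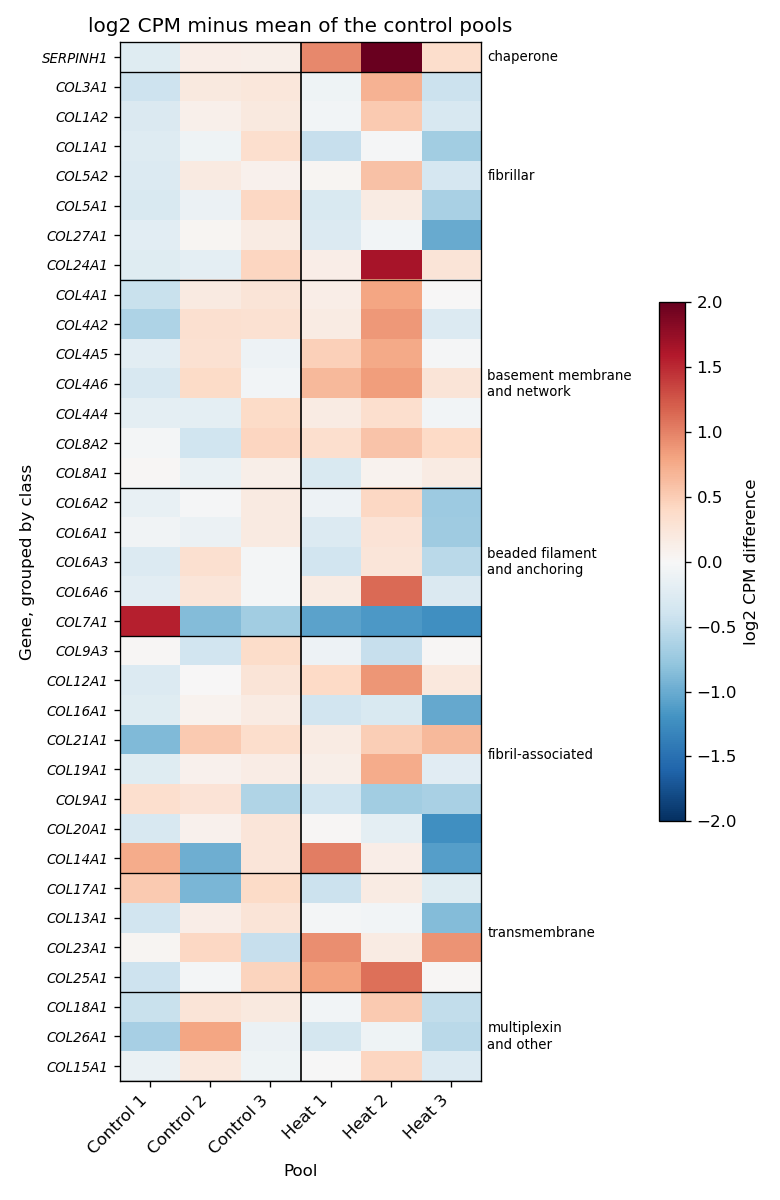
Log2 CPM of each kept member in each pool minus the mean of the control pools, grouped by class, with red above and blue below that mean and colours ending at 2 on either side. Heat pool 2 is the highest heat pool for 25 of 34 collagens and heat pool 3 the lowest for 26, while SERPINH1 is red in all 3 heat pools. The share of all genes with these orders was not computed.

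Markers of the cells that make collagen moved in the same order. The median of 17 fibroblast markers other than collagens, relative to the mean of the control pools, was -0.25, 0.05 and 0.10 in control and -0.05, 0.26 and -0.43 in heat on the log2 CPM scale. Of the 18 measured, TWIST1 had 0 to 3 counts per pool and was not tested. Their summed level ran from 2314 to 3205 CPM in control and from 1834 to 3119 CPM in heat. Most of that sum was 1 gene, CFD, at 1535, 1656 and 2298 CPM in control and 1558, 1910 and 1188 CPM in heat. Taken pool by pool, the collagen median exceeded the fibroblast median by 0.01, 0.03 and 0.09 in control and by 0.03, 0.11 and 0.12 in heat, all smaller than the spread of either median. The 3 fibroblast markers with the smallest p were FAP (log2 fold change 0.65), ELN (-0.53) and THY1 (-0.43), FAP higher and ELN lower without overlap. These were 2 of 17, beside 24.5% of all genes in either direction. In bulk tissue, fewer cells of a type and less RNA per cell cannot be told apart.

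Endothelial markers followed a like order, with medians of 10 genes at -0.34, 0.09 and 0.13 in control and -0.00, 0.25 and -0.35 in heat, and sums of 282 to 357 CPM in control and 277 to 401 CPM in heat. Smooth muscle markers did not: their median over 13 genes was -0.08, -0.23 and 0.32 in control and -0.46, 0.45 and 0.35 in heat, high in heat pool 3 where the collagens were low. Their sums ran from 1117 to 1746 CPM in control and 1054 to 2003 CPM in heat. No marker of these lists passed the edgeR threshold, and the part that cell makeup has in the collagen levels was not tested. The genes with the smallest p were TEK (0.35), ESAM (-0.48) and PECAM1 (0.25) for endothelium, and MYH11 (0.56), MYLK (0.50) and ACTG2 (0.42) for smooth muscle, given as log2 fold changes. With one pool left out, ACTG2 fell as low as 0.06. Enteric neuron and glia markers summed to 15.9 to 27.4 CPM per pool, and CHAT (0.54), S100B (-0.57) and RET (0.08) had the smallest p. With one pool left out, S100B came as near to 0 as -0.08. Among 12 enterocyte markers, APOB (0.54) was higher and VIL1 (-0.55) and HNF4A (-0.31) lower in all heat pools without overlap. That is 3 of 12, near the 24.5% of all genes that did so in either direction.

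**Figure D4:**
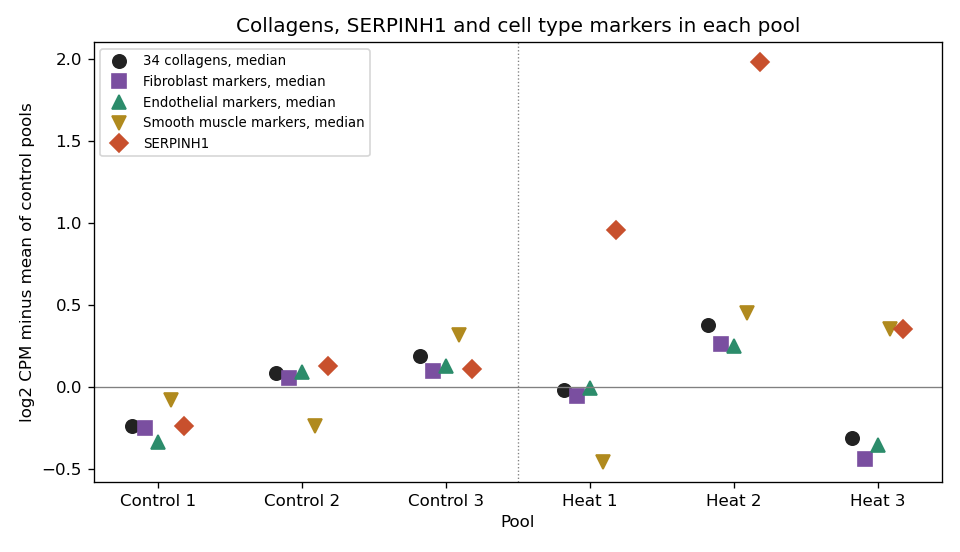
Log2 CPM minus the mean of the control pools, by pool: SERPINH1, and the medians of the 34 collagens and of fibroblast, endothelial and smooth muscle markers. The collagen median (0.38 in heat pool 2 and -0.31 in heat pool 3) lies near the fibroblast median (0.26 and -0.43), and SERPINH1 lies above the collagen median in all 3 heat pools.

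Relative to the collagens of the same pool, SERPINH1 was higher in every heat pool than in every control pool. Per 100 FPKM of collagen, SERPINH1 was at 9.40, 9.38 and 8.46 FPKM in the control pools and at 19.2, 25.5 and 15.98 FPKM in the heat pools. The means were 9.08 ± 0.535 and 20.2 ± 4.83 (SD, n = 3 each), the groups did not overlap, and the heat pool with the smallest value, pool 3, was still well above all control pools. Against the collagen median of its own pool, on the log2 CPM scale relative to the control mean, SERPINH1 was at -0.00, 0.04 and -0.08 in control and 0.98, 1.605 and 0.67 in heat. In heat pool 3 SERPINH1 itself was only 1.27 times the control mean. There SERPINH1 was at 0.36 and the collagen median at -0.31, so the low collagens of that pool supplied part of the difference. That pool also had the lowest collagen sum, 290 FPKM, which raises its value per 100 FPKM of collagen. Against the single chain COL3A1, the ratio of FPKM values was 0.338, 0.287 and 0.276 in control and 0.619, 0.728 and 0.515 in heat. SERPINH1 minus the collagen median log2 fold change was 1.17, and 0.83 without heat pool 2.

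The chains of one collagen type could be compared in the same way. The ratio of COL1A1 to COL1A2, partner chains of type I collagen, was 1.09, 0.937 and 1.17 in control and 0.804, 0.728 and 0.819 in heat. These groups did not overlap, with means of 1.07 ± 0.120 and 0.784 ± 0.049 (SD, n = 3 each). In the fit the log2 fold change of COL1A1 minus that of COL1A2 was -0.46, and it stayed between -0.56 and -0.37 with any one pool left out. COL4A5 to COL4A6 was 3.44, 3.003 and 3.08 in control and 2.80, 2.99 and 2.59 in heat, which barely separates the groups. COL4A1 to COL4A2 overlapped, at 1.96, 1.598 and 1.697 in control and 1.73, 1.75 and 2.15 in heat, as did COL6A1 to COL6A2, at 0.981, 0.882 and 0.944 in control and 0.825, 0.848 and 0.944 in heat. These ratios were chosen after the values were seen, so no test is given for them. With 3 pools against 3, 24.5% of single genes had groups that did not overlap in CPM. No such share was computed for ratios of genes, where it may differ.

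**Figure D5:**
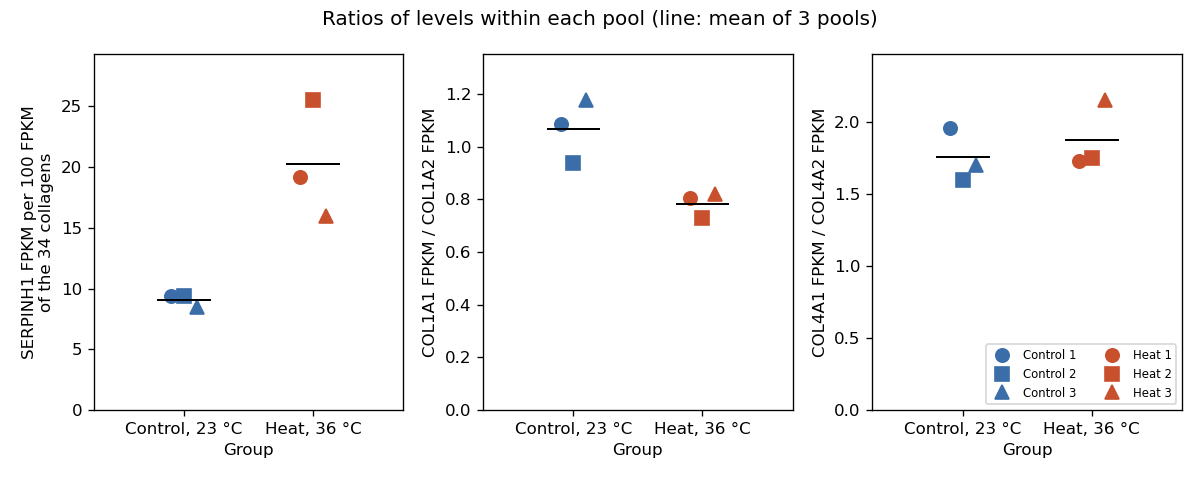
Ratios of FPKM values within each pool, control and heat, with a line at each group mean: SERPINH1 per 100 FPKM of the 34 collagens, COL1A1 over COL1A2, and COL4A1 over COL4A2. The heat pools lie at 15.98 to 25.5 against 8.46 to 9.40 in control for the first ratio, below all control pools for the second, and overlap them for the third.

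The genes that make, export, cross-link and degrade collagen were counted in 7 lists with 92 genes tested. None passed the edgeR threshold, 8 were higher and 7 lower in all heat pools without overlap, which is 16.3% of the lists beside 24.5% of all genes (12 of the 15 were also apart in FPKM), and the median log2 fold change was 0.03. Prolyl 4-hydroxylase, whose products stabilise the triple helix, had its catalytic subunits on both sides. P4HA2 was at 38.9, 36.4 and 36.4 CPM in control and 67.5, 133 and 52.8 CPM in heat, higher in every heat pool, and 1.81, 3.57 and 1.42 times the control mean. The order of its 3 heat pools was that of SERPINH1, and also that of P4HA1 and of the collagen and fibroblast marker medians. The log2 fold change was 1.18 (SE 0.31, edgeR adjusted p = 0.132, DESeq2 adjusted p = 0.00462), and 0.70 without heat pool 2. P4HA1 was at 0.31, higher in all heat pools without overlap, and P4HA3 at -0.88 (SE 0.29), lower in all, with 1.04, 1.10 and 1.17 FPKM in control and 0.56, 0.70 and 0.46 FPKM in heat.

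Of the other modification and folding genes, the prolyl isomerases FKBP9 (-0.51) and FKBP10 (-0.54) were lower without overlap, though FKBP10 overlapped in FPKM, and the list of 18 had a median of -0.03. Among 15 genes of export and trimming (median -0.07), MIA3, known as TANGO1, and its relative MIA2 load bulky cargo such as procollagen at exit sites of the endoplasmic reticulum. MIA2 was at 99.8, 93.1 and 103 CPM in control and 108, 173 and 167 CPM in heat, with a log2 fold change of 0.60 (SE 0.18, edgeR adjusted p = 0.158, DESeq2 adjusted p = 0.0484). MIA3 was at 0.31, higher in all heat pools in CPM but overlapping in FPKM, and PREB, which activates the small GTPase of the same coat, was lower in all, at -0.54. In the cross-linking and fibril assembly list (15 genes, median 0.11), the genes lower without overlap were FMOD (-0.97), a collagen-binding proteoglycan at 0.17 to 0.39 FPKM, and the lysyl oxidase relatives LOXL3 (-0.35) and LOXL1 (-0.41). FMOD was low, at 0.79 to 0.86 CPM in control and 0.40 to 0.42 CPM in heat, and DESeq2 gave it no adjusted p. POSTN, a matrix protein that supports fibril assembly, was at 0.66 with overlapping groups, and at 0.42 at the lowest with one pool left out. Without overlap, 2 genes were higher and 3 lower in the modification list, 2 and 1 in export, and 0 and 3 in cross-linking. Of all genes, 11.6% were higher and 12.9% lower without overlap.

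In the collagen breakdown list (14 genes, median 0.24), 3 genes were higher and 0 lower without overlap. Of all genes, 11.6% were higher and 12.9% lower, 24.5% in either direction. The 3 were CTSB (0.36), a lysosomal protease, MMP9 (0.81), a gelatinase, and TIMP3 (0.48), a metalloprotease inhibitor that overlapped in FPKM. TIMP4, another inhibitor, was at 0.62 with overlapping groups. The list joins proteases with their inhibitors, and 9 of its genes had positive and 5 negative log2 fold changes. At an unadjusted edgeR p under 0.05, 4 genes were higher and 1 lower, beside 17.9% of all genes in either direction. The 4 were CTSB, MMP9, TIMP4 and MMP10 (0.74, overlapping groups). The 1 lower was MMP1, a metalloprotease, at -0.94 with overlapping groups, at a mean of 6.30 CPM in control and 3.29 CPM in heat. All 6 collagen receptors tested had positive log2 fold changes (median 0.18), and the share of all genes with a positive value was not computed. ITGA1 (0.72, SE 0.44), ITGA11 (0.38, SE 0.24) and ITGB1 (0.18, SE 0.15), which encode integrin subunits, overlapped between groups. With one pool left out, their lowest values were 0.40, 0.18 and 0.04. The median of the 6 receptors, in log2 CPM relative to the control mean, was -0.00, 0.55 and 0.07 in heat pools 1, 2 and 3. Among 13 basement membrane partners (median -0.03), LAMA3 was at 0.50 and LAMB3, a partner chain in epithelial laminin, at -0.49, neither without overlap. For 11 genes of TGF-beta signalling, a main inducer of collagen genes, the median was 0.03. There TGFBR1, a receptor, was at 0.44, the single one without overlap (24.5% of all genes in either direction), TGFBR2 at 0.22 and the ligand TGFB1 at -0.25. Collagens had longer transcripts than most genes, with a median implied length of 5819 bases against 2562 for all genes tested, and with a trend on length removed their median log2 fold change was -0.02.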

How the data were processed

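The authors deposited a table of 16317 genes with gene symbols, and for each library an estimated count and an FPKM value per gene, per the file headers. Between 13.1% and 13.7% of the estimated counts of a library are not whole numbers. The submitters' processing notes name cutadapt 1.9.1, HISAT2 2.0.1, HTSeq 0.6.1, DESeq2 and GRCg6a with no roles. Which tool made the counts, and its strand setting, are not given in the sources used here, so reads of overlapping or near-identical genes are uncertain. Per the labels' protocols, RNA was enriched by poly(A) isolation or by rRNA removal.

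Groups and pool numbers came from the sample titles. Estimated counts were rounded and tested with edgeR 4.0.16 in R 4.3.3 (quasi-likelihood test, TMM scaling, filterByExpr with a minimum count of 10 and a minimum total of 15) over all 13060 genes that passed. P-values were two-sided and adjusted after Benjamini and Hochberg, with a threshold of 0.05. The common biological coefficient of variation was 0.196. CPM use TMM-scaled totals, and levels relative to control are differences of log2 CPM with a prior count of 2. FPKM were used as deposited for levels and ratios. Gene lengths were those implied by count, total and FPKM. The code was tested on simulated data. Alternatives were DESeq2 1.42.0, other scalings and filters, limma 3.58.1 (trend on log2 of FPKM plus 1 or 0.1, and voom with library weights), a replicate block, a length trend and each pool left out. Python 3.11.15, pandas 2.3.3 and matplotlib 3.10.9 prepared tables and plots.

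Values are given for SERPINH1, the 10 members with the highest mean FPKM, the 4 with the smallest p in each direction, and the 3 smallest p of every other list, of which some items are not reported here. Genes named for groups that do not overlap were added after their values were seen, as were MMP1 and MMP10. The members and all gene lists were chosen with earlier results of these data known, and the ratios within a pool after seeing the data. P-values weigh the difference between the groups against the spread between pools. Gene neighbours come from a RefSeq gene table of another assembly, GRCg7b, so no coordinates are given.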

Additional observations from a re-analysis of the deposited data

How the results depend on the processing

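No collagen passed the threshold under any of the 16 alternatives, where DESeq2 gave an adjusted p for 30 of the 34 (not for COL9A1, COL14A1, COL23A1 and COL25A1). The count over all genes, 3 in edgeR, was 645 in DESeq2 (352 higher, 293 lower), 1 in limma on log2(FPKM + 0.1), 5 with library weights and 0 to 7 with one pool left out, with 0 for each control pool or heat pool 1. Correlations of same-numbered pools of the 2 groups were 0.257, 0.09 and 0.02, and those of differently numbered pools ran from -0.239 to 0.185. These values do not settle whether pool numbers pair the samples. With the replicate block the count was 20 (8 higher, 12 lower), and SERPINH1 was at 1.10. In DESeq2, 9 genes of the other lists passed (APOB, DNAJA1, HSP90AA1, HSP90B1, HSPA5, HSPA8, HSPH1, MIA2 and P4HA2), beside 0 in edgeR, and SERPINH1 passed at 1.26; the cause was not tested. SERPINH1 ranged from 0.68 to 1.55 with one pool left out, and its difference from the collagen median (1.17) from 0.83 to 1.32. This difference and that of COL1A1 and COL1A2 were added after seeing the data. Among log2 fold changes of 76 named genes other than SERPINH1 under the alternatives, leaving out 6 that had no adjusted p in DESeq2, 1174 kept direction and side of the threshold, 7 came to pass it and 29 changed sign. On log2(FPKM + 1) and log2(FPKM + 0.1) the sign changed for COL1A2 (-0.010 and -0.011), COL18A1 (-0.039 and -0.056) and RET (-0.022 and -0.038), and with the length trend removed for COL18A1 (-0.041) and COL15A1 (-0.059). With one pool left out, these ranges crossed 0: COL14A1 -0.615 to 0.606, COL15A1 -0.14 to 0.24, COL18A1 -0.28 to 0.23, COL19A1 -0.053 to 0.47, COL1A2 -0.19 to 0.25, COL26A1 -0.75 to 0.064, COL3A1 -0.27 to 0.33, COL4A2 -0.10 to 0.50, COL5A2 -0.15 to 0.32, COL6A1 -0.49 to 0.019, COL6A2 -0.39 to 0.175, COL6A6 -0.059 to 0.72, COL8A1 -0.12 to 0.13, COL9A3 -0.37 to 0.0042 and HSF1 -0.015 to 0.44. Depth limits COL7A1, COL14A1, COL20A1, COL23A1 and COL25A1, which had pools under 10 counts.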
